A study of Mus musculus with 8 samples.

Results

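The genes described here are 48 mouse genes that run mitosis: the kinases, cyclins and transcription factor of mitotic entry, the spindle checkpoint, the chromosomal passenger complex, the kinetochore, the mitotic kinesins, spindle assembly factors and condensin. They were chosen by gene symbol from a named list, with the condition that a gene had a normalised read count of at least 10 in 2 or more libraries. All 48 met that condition in both deposited tables, among 15415 genes tested in the Trim28 knockout experiment, 13978 in the IL-2 antibody experiment and 12428 in both. The rule itself uses no difference between groups. The list was nevertheless chosen with earlier results of these data known, so its counts are not those of an unselected set.

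Entry into mitosis is driven by CDK1 bound to cyclin B, which is switched on by CDC25 phosphatases and supported by the Polo-like and Aurora kinases. Condensed chromosomes then attach to the spindle through the kinetochore, and the spindle checkpoint holds back the anaphase-promoting complex until every chromosome is attached. The transcripts of this machinery are low in resting T cells and in G1, rise in G2 and M phase, and are widely used to follow the clonal expansion of activated CD8+ T cells.

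CD8+ T cells, the precursors of cytotoxic T cells, came from mouse spleens and lymph nodes, and polyA RNA was sequenced in 8 libraries, 2 per group. In the first experiment Trim28fl/fl cells, called control here, were compared with Trim28-/- cells, called knockout, both after activation in vitro. TRIM28 is a chromatin corepressor that is recruited to DNA by zinc finger proteins. In the second experiment wild-type cells were kept for 3 days with anti-CD3 and anti-CD28, which engage the T cell receptor and its costimulator, either untreated or treated with an antibody to IL-2, the growth factor that activated T cells secrete; these groups are called untreated and blocked. The labels give neither the Cre line behind the deletion nor the age or number of mice, and no length of activation is recorded here for the first experiment. They call the libraries replicates without saying whether these were separate animals or cultures, so every p-value is set against the scatter of these libraries alone, and that scatter could be purely technical. In bulk RNA of this kind, fewer cells with a transcript and less of it per cell cannot be told apart.

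The libraries of the first experiment held 13222831 to 13469789 reads and those of the second 16618750 to 17069569, and replicates differed by more than sampling noise in all 4 groups. By chi-square per degree of freedom they differed most in the blocked group, at 3.87, and least in the untreated group, at 1.32. Trim28 itself read 4262 and 4323 normalised counts in the control libraries against 415 and 458 in the knockout libraries. Il2ra, the IL-2 receptor chain that IL-2 itself induces, read 44645 and 43661 in the untreated libraries against 22025 and 21937 in the blocked libraries. Each of these genes also differed in the other experiment. Trim28 read 5774 and 5920 in untreated against 7926 and 8528 in blocked libraries (log2 difference 0.49). Il2ra read 26819 and 27387 in control against 24794 and 23967 in knockout libraries (log2 difference -0.15). The 5 CD8 T cell markers summed to 17389 to 17753 in control and 17098 to 17510.0 in knockout libraries, and to 27810 to 28014 in untreated and 21886 to 22522 in blocked libraries. The lists for other cells summed to between 7.84 and 1110.2 in every library, with Ms4a1, Adgre1, Ncr1 and Hbb-bs among the markers at 0 in the whole first table and Ncr1 among those at 0 in the second. In the first experiment the 5 B cell markers went from sums of 35.5 and 36.5 to 8.86 and 7.84, the 4 CD4 T cell markers from 504 and 524 to 153 and 169.6, and the 5 myeloid markers from 245 and 288 to 139.8 and 152, while the 5 erythroid and stromal markers went from 294 and 431 to 571 and 603. In the second experiment the myeloid sum went from 345 and 354 to 87.8 and 85.4, the sum of 4 NK markers from 395 and 406 to 165 and 173, and the erythroid and stromal sum from 536 and 561 to 1110.2 and 1065. These sums rest on few genes and their members did not all move one way. Among the CD4 T cell markers of the first experiment Cd40lg went from 346 and 365 to 41.4 and 49.01 while Foxp3 went from 4.06 and 5.07 to 43.3 and 49.01, and Cd4 itself read 0 to 7.88. In the second experiment Foxp3 went from 58.2 and 50.5 to 8.59 and 9.59. Cd68 held most of each myeloid sum, Eomes of each NK sum and Pecam1 of each erythroid and stromal sum. The part of these marker differences in the results was not tested.

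The mitotic genes were mostly more abundant in both treated groups. With limma on the log2 scale and Benjamini-Hochberg adjustment over all genes, called at an adjusted p under 0.05, with n = 2 libraries per group throughout, 35 of the 48 rose in the knockout, where 32.9% of all genes tested were called higher. The 2 that fell were Mki67 and Cenpe, where 28.2% of all genes were called lower, and the other 11 were not called. In either direction 61% of all genes tested were called in the knockout experiment and 60.3% in the blockade experiment. Under IL-2 blockade 44 rose and 2 fell, Cenpa and Ube2c, where 31.4% of all genes were called higher and 28.9% lower, and the uncalled members were Aurka and Cdc25c. The median log2 difference of the 48 genes was 0.32 in the knockout and 0.75 under blockade, beside 0.03 and 0.02 for all genes tested. Summed over the 48 genes, the share of all reads was 0.348% and 0.361% in the control libraries and 0.453% and 0.445% in the knockout libraries. In the second experiment it was 0.384% in both untreated libraries and 0.660% and 0.645% in the blocked libraries. Each treated library lay above each reference library of its experiment in this share. Taken gene by gene, the libraries of the groups did not overlap for 40 higher and 2 lower members in the knockout, where 43.4% and 38.9% of all genes were separate in those directions, and for 45 higher and 2 lower members under blockade, where 41.1% and 38.2% were.

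**Figure D1:**
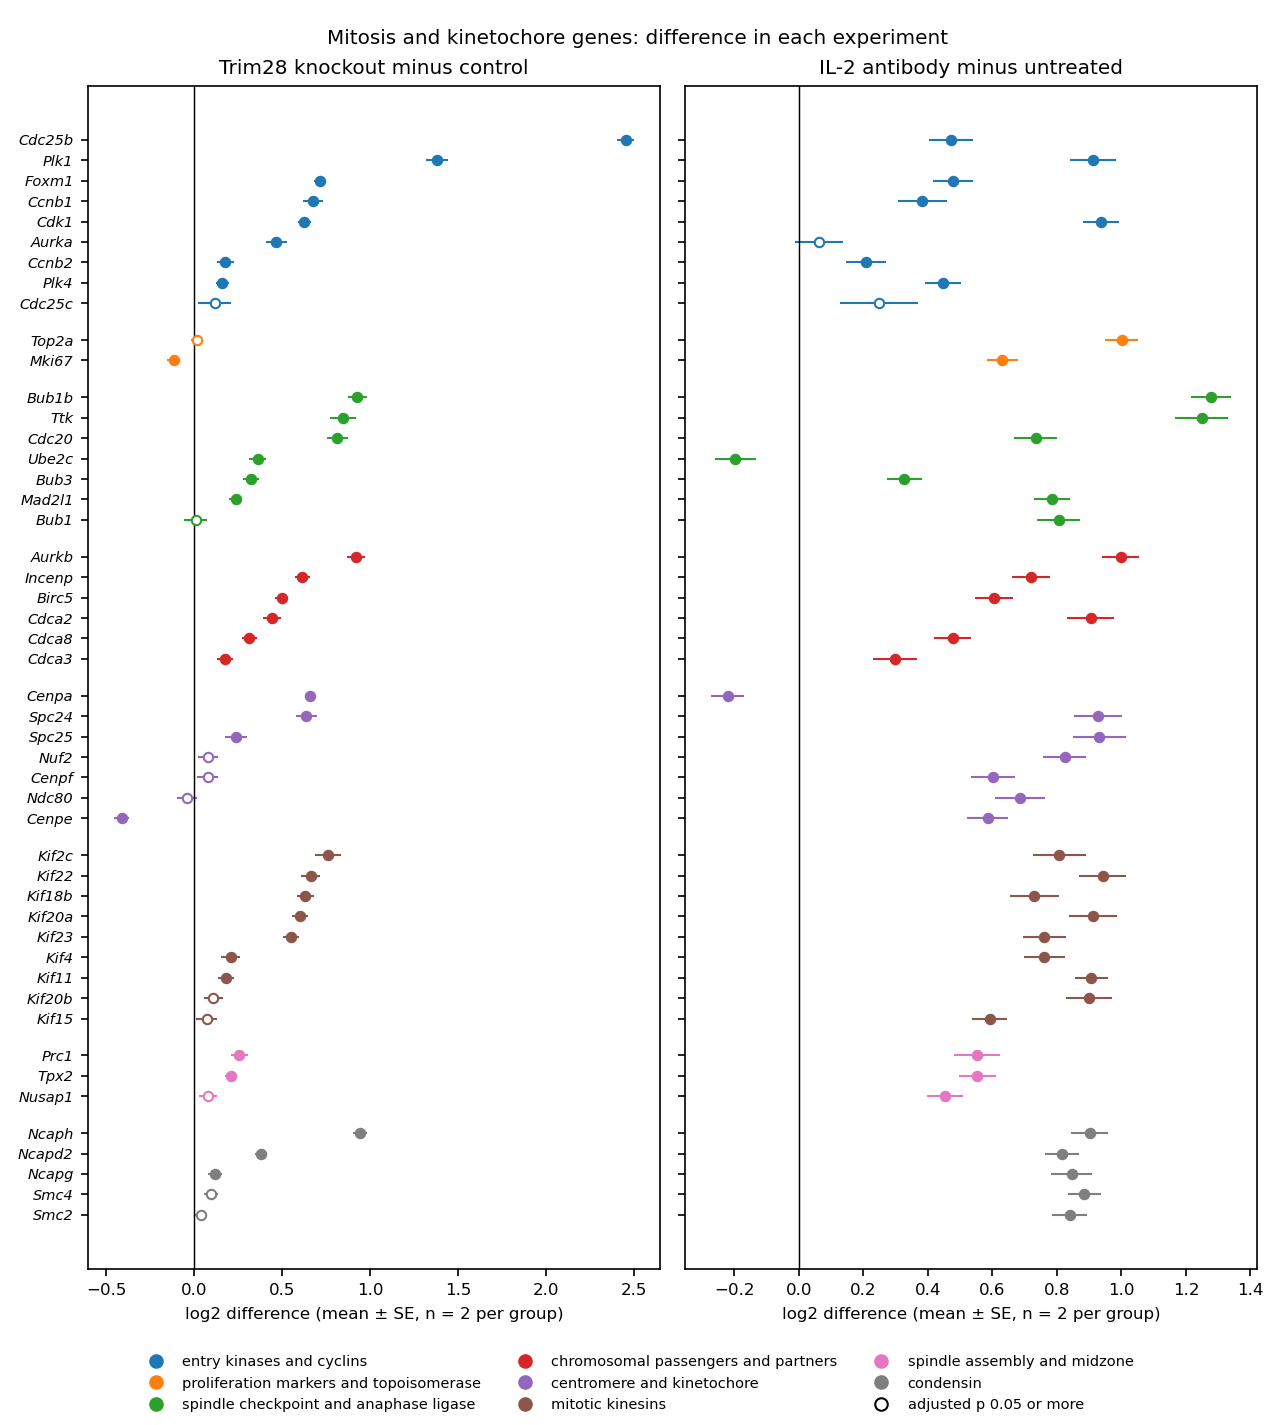
Log2 difference of each of the 48 genes (points, with standard errors as bars, n = 2 libraries per group) in the Trim28 knockout (left) and under IL-2 blockade (right), grouped and coloured by role. Filled points passed an adjusted p of 0.05: 35 higher and 2 lower on the left, 44 higher and 2 lower on the right, and open points did not. Each panel has its own horizontal scale.

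Of the 35 genes called higher in the knockout, 21 kept that call under every alternative run. The other 14 lost it under at least 1: Ccnb2, Plk4, Aurka, Bub3, Mad2l1, Ube2c, Cdca8, Cdca3, Spc25, Kif4, Kif11, Tpx2, Prc1 and Ncapg. The count was 34 with TMM rescaling, 28 with upper-quartile rescaling, 34 with edgeR and 25 with DESeq2, and 24 to 31 with 1 library left out, lowest without knockout replicate 2. Aurka lost its call only without knockout replicate 2, and Bub3 and Cdca8 only without either knockout library. Under blockade 42 of the 44 kept the call under every alternative, all but Ccnb2 and Cdca3. No member was called in the opposite direction under any alternative, in either experiment.

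Many mitotic genes share a promoter element, the cell cycle genes homology region (CHR), which the DREAM complex binds when cells rest and the MuvB complex with B-MYB and FOXM1 binds when they cycle, often close to CCAAT boxes bound by NF-Y. The 250 bases before the annotated start were searched on both strands for TTTGAA or TTCGAA as the CHR and for CCAAT, in the RefSeq table of build GRCm38.p6, which held 41 promoters of 39 members. The CHR letters occurred in 41.5% of the members' promoters and in 17.1% of all 32851 promoters. CCAAT occurred in 75.6% against 33.9%, and both together in 36.6% against 6.02%. A short E2F site, TTTCCCGC or TTTGGCGC, occurred in 4.88% against 1.3%. These are letter matches and not measured binding. 4 promoters are shown, picked by hand from the genes described in full that held a CHR match, with bases matching the CHR or CCAAT on either strand in capitals. Ube2c, Kif22 and Prc1 also held a match and are not shown. The stretches end before any annotated exon, and they read from 150 bases before the start to the base before it for Mki67 and Top2a, to 27 bases before it for Cdk1, and from 220 to 71 bases before the start for Bub1b.
Mki67 (chr7:135716380-135716529, minus strand): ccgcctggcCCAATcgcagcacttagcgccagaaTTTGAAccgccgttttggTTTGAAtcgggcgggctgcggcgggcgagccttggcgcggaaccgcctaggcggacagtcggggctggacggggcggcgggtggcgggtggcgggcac
Top2a (chr11:99024190-99024339, minus strand): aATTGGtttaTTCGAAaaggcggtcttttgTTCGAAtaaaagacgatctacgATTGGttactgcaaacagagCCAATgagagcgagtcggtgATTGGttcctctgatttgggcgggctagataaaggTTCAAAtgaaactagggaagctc
Cdk1 (chr10:69352939-69353062, minus strand): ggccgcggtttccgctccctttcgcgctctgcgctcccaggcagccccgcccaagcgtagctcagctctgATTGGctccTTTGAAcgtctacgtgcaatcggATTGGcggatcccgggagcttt
Bub1b (chr2:118597991-118598140, plus strand): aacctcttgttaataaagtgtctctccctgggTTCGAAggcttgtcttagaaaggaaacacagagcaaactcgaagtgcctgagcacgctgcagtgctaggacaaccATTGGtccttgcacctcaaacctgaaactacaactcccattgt

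In the whole 250 bases searched, Mki67 and Cdk1 each held 2 CHR matches, Top2a 4 and Bub1b 1, of which 1 of Cdk1 and 1 of Top2a lie outside the stretches shown. Mki67 and Top2a were not called higher in the knockout, while Cdk1 and Bub1b rose in both experiments. Among the 39 members with a searched promoter, the 16 with a CHR match had a median log2 difference of 0.29 in the knockout. Of these, 12 were called higher and 1 lower. The 23 without a match had a median of 0.24, with 16 called higher and 1 lower. Under blockade the medians were 0.81 and 0.69, with 15 of 16 and 21 of 23 called higher. Members that rose in the knockout and members that did not were found on both sides of this division. The 9 members not searched had medians of 0.60 in the knockout and 0.89 under blockade, with 7 and 8 called higher. Of all genes tested, 32.9% were called higher in the knockout and 31.4% under blockade.

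The regulators of mitotic entry held the largest knockout difference of the list. Cdc25b, the phosphatase that first activates CDK1 at the centrosome, read 331 and 331 in the control libraries and 1879.9 and 1758 in the knockout libraries (log2 difference 2.45 ± 0.047 SE, adjusted p = 3.42e-06). It read 619 and 636 in untreated and 873 and 869 in blocked libraries (log2 difference 0.47 ± 0.067 SE, adjusted p = 6.38e-06). In fold terms this was 5.48 in the knockout and 1.39 under blockade, without overlap between groups in either experiment. Plk1, the Polo-like kinase that promotes entry and spindle assembly, read 356 and 324 in control and 912 and 861 in knockout libraries (log2 difference 1.38 ± 0.062 SE, adjusted p = 2.74e-05). Under blockade Plk1 went from 618 and 573 to 1076 and 1167 (log2 difference 0.91 ± 0.07 SE, adjusted p = 1.51e-09). Both treated groups lay wholly above their reference groups for Plk1.

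The kinase and its cyclin rose in both experiments with different balance. Cdk1, the catalytic kinase of mitotic entry, read 792 and 814 in control and 1234 and 1245 in knockout libraries (log2 difference 0.63 ± 0.037 SE, adjusted p = 6.32e-05), and 1205 and 1164 in untreated against 2278 and 2258 in blocked libraries (log2 difference 0.94 ± 0.056 SE, adjusted p = 3.56e-11). Ccnb1, cyclin B1, its activating partner, read 422 and 462 in control and 711 and 701 in knockout libraries (log2 difference 0.68 ± 0.057 SE, adjusted p = 2.28e-04), and 492 and 483 in untreated against 661 and 612 in blocked libraries (log2 difference 0.38 ± 0.075 SE, adjusted p = 2.30e-04). Every treated library was above every reference library for both genes. Ccnb1 has near-identical pseudogenes, 1 of which, Gm12856, read 79.1 to 122 in the first table, so reads shared between them could move its values. Foxm1, the transcription factor that drives many G2 and M phase genes, read 788 and 771 in control and 1288 and 1274 in knockout libraries (log2 difference 0.72 ± 0.036 SE, adjusted p = 3.78e-05). It read 1309 and 1250.3 in untreated and 1692 and 1878 in blocked libraries (log2 difference 0.48 ± 0.062 SE, adjusted p = 2.13e-06), with wider spread between the blocked libraries. Among the other entry genes, Aurka, the centrosomal Aurora kinase, rose by 0.47 (adjusted p = 9.65e-04) in the knockout and read 601 and 674 in untreated against 678 and 651 in blocked libraries, which overlapped. Ccnb2 is the second B-type cyclin and Plk4 the kinase of centriole duplication. They rose by 0.18 and 0.16 in the knockout and by 0.21 and 0.45 under blockade. The knockout rises of both were not called with upper-quartile rescaling, with DESeq2 or without the mean-variance trend. Leaving out some single libraries also removed these calls. Cdc25c, another CDC25 phosphatase and among the least abundant members per length, differed by 0.12 (adjusted p = 0.312) and 0.25 (adjusted p = 0.0825). Of its exon bases, 12.7% lie opposite exons of Gm3550, which read 346 to 389 in the first table.

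**Figure D2:**
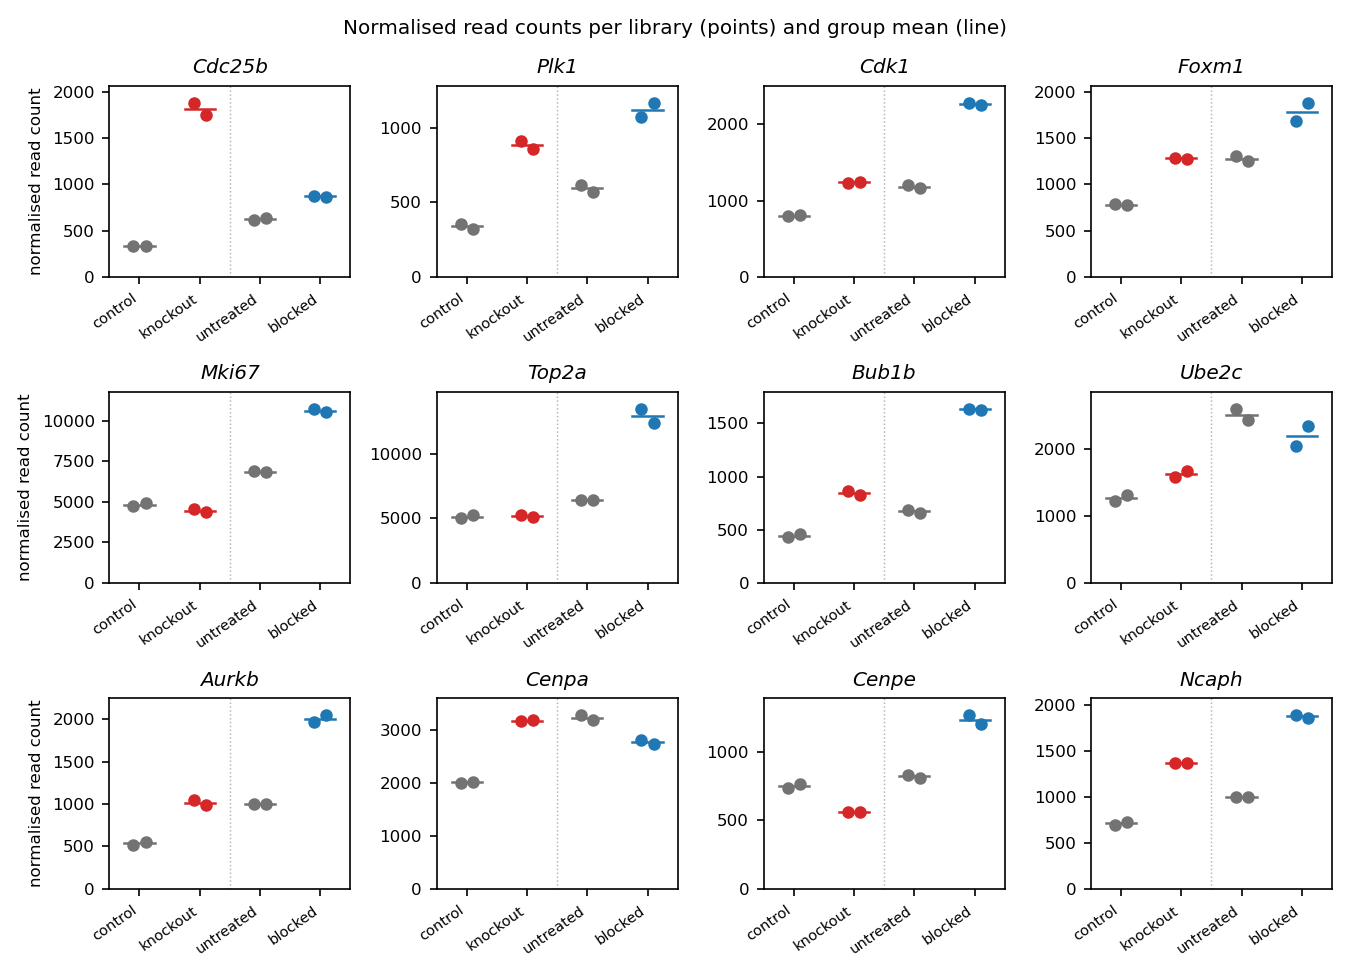
Normalised read count (vertical axis, starting at 0) of 12 genes in each library (points) with the group mean (line), for control and Trim28 knockout libraries and, right of the dotted line, untreated and IL-2 blocked libraries of the separately scaled second table. Cdc25b stands apart in the knockout, Top2a and Mki67 in the blocked libraries, and Cenpa and Ube2c are higher in the knockout and lower in the blocked libraries.

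Mki67 and Top2a, widely used markers of dividing cells, were not called higher in the knockout and rose under blockade. Mki67 encodes Ki-67, the coat of mitotic chromosomes stained in proliferation assays. It read 4718 and 4939 in control and 4535 and 4367 in knockout libraries (log2 difference -0.12 ± 0.035 SE, adjusted p = 0.029), and 6899.8 and 6816 in untreated against 10708 and 10537 in blocked libraries (log2 difference 0.63 ± 0.048 SE, adjusted p = 1.08e-09). The knockout libraries were all below the controls, and the blocked libraries all above the untreated. The knockout call for Mki67 was lost without the filter (adjusted p = 0.12), without the mean-variance trend (0.136), with the replicate number as a block (0.0551) and on leaving out any 1 library (0.0513 to 0.205). Top2a, topoisomerase II alpha, which untangles sister chromatids, read 5064 and 5228 in control and 5288 and 5101 in knockout libraries, which overlapped (log2 difference 0.01 ± 0.031 SE, adjusted p = 0.728). Its estimate was -0.07 with upper-quartile rescaling, so that its direction depended on the scaling. Under blockade Top2a went from 6459 and 6456 to 13479 and 12392 (log2 difference 1.00 ± 0.051 SE, adjusted p = 3.55e-12).

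Of the 7 genes of the spindle checkpoint and the anaphase ligase, 6 rose in the knockout, with Bub1 not called, and 6 rose under blockade, with Ube2c lower. Among all genes tested, 32.9% and 31.4% were called higher, and 28.2% and 28.9% lower. Bub1b encodes BUBR1, the checkpoint protein that restrains the anaphase-promoting complex. It read 428 and 460.2 in control and 862 and 828 in knockout libraries (log2 difference 0.93 ± 0.053 SE, adjusted p = 5.88e-05), and 685 and 660.2 in untreated against 1633 and 1631 in blocked libraries (log2 difference 1.28 ± 0.062 SE, adjusted p = 1.45e-12). The blockade difference of Bub1b, 2.43 in fold terms, was the largest of the 48. Ttk, the MPS1 kinase that starts checkpoint signalling at unattached kinetochores, read 189 and 206 in control and 367 and 343 in knockout libraries (log2 difference 0.85 ± 0.072 SE, adjusted p = 2.35e-04). Under blockade Ttk went from 258 and 268 to 631 and 620.5 (log2 difference 1.25 ± 0.082 SE, adjusted p = 1.51e-10). Both genes were separate between groups in each experiment. Cdc20, the activator of the anaphase-promoting complex, rose by 0.81 (adjusted p = 1.22e-04) and 0.73 (adjusted p = 1.36e-08). Bub3 and Mad2l1, the BUB partner and the MAD2 inhibitor of CDC20, rose by 0.32 and 0.24 in the knockout and by 0.33 and 0.79 under blockade. Bub1, the checkpoint kinase at the kinetochore, differed by 0.01 (adjusted p = 0.924) in the knockout and rose by 0.81 (adjusted p = 4.85e-09) under blockade.

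Ube2c, the ubiquitin-conjugating enzyme that serves the anaphase-promoting complex, was called in opposite directions. It read 1219 and 1304 in control and 1575 and 1667 in knockout libraries (log2 difference 0.36 ± 0.049 SE, adjusted p = 0.00136). In the second experiment it read 2591 and 2435 in untreated and 2047 and 2344 in blocked libraries (log2 difference -0.20 ± 0.063 SE, adjusted p = 0.0113). The groups did not overlap in either experiment, but the blocked libraries lay apart from each other. The blockade call was lost without the filter (adjusted p = 0.202), without the mean-variance trend (0.172) and without untreated replicate 1 (0.226), untreated replicate 2 (0.0619) or blocked replicate A (0.0587), where its difference was -0.0997. The knockout call was lost without knockout replicate 2 (0.0533).

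All 6 genes of the chromosomal passenger complex and its partners rose in both experiments, where 32.9% and 31.4% of all genes were called higher. Aurkb, the Aurora kinase that corrects faulty attachments, read 521 and 551 in control and 1044 and 989 in knockout libraries (log2 difference 0.92 ± 0.05 SE, adjusted p = 4.98e-05). It read 1003 and 1003 in untreated and 1964 and 2045 in blocked libraries (log2 difference 1.00 ± 0.058 SE, adjusted p = 2.16e-11), again without overlap. Incenp, the scaffold of the complex, Birc5, survivin, and Cdca8, borealin, rose by 0.61, 0.50 and 0.31 in the knockout and by 0.72, 0.60 and 0.48 under blockade. Cdca2, the Repo-Man subunit that brings protein phosphatase to chromatin, read 333 and 320.3 in control and 447 and 440.2 in knockout libraries (log2 difference 0.44 ± 0.051 SE, adjusted p = 7.43e-04), and 433 and 428 in untreated against 835 and 781 in blocked libraries (log2 difference 0.90 ± 0.074 SE, adjusted p = 3.32e-09). Cdca3, linked to degradation of the mitosis inhibitor WEE1, rose least of these, by 0.17 and 0.30.

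The centromere and kinetochore genes did not all move one way. In the knockout 3 of 7 rose, Cenpa, Spc24 and Spc25, 1 fell, Cenpe, and 3 were not called, while under blockade 6 rose and Cenpa fell. With 7 genes, the knockout shares of 42.9% higher and 14.3% lower were not far from the 32.9% and 28.2% of all genes. Cenpa, the histone H3 variant that marks the centromere, read 2011 and 2013 in control and 3172 and 3189 in knockout libraries (log2 difference 0.66 ± 0.028 SE, adjusted p = 2.30e-05). It read 3283 and 3189 in untreated and 2815 and 2738 in blocked libraries (log2 difference -0.22 ± 0.051 SE, adjusted p = 0.0011). All knockout libraries were above the controls and all blocked libraries below the untreated. The blockade call for Cenpa was lost without the mean-variance trend (adjusted p = 0.0512) and without untreated replicate 1 (0.0764). Cenpe, the kinetochore motor that carries chromosomes to the spindle equator, showed the opposite order. Its values were 737 and 763 in control and 564 and 562 in knockout libraries (log2 difference -0.41 ± 0.042 SE, adjusted p = 4.63e-04), and 832 and 813 in untreated against 1268 and 1202 in blocked libraries (log2 difference 0.59 ± 0.063 SE, adjusted p = 1.75e-07). Both calls for Cenpe held under every alternative run.

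The 4 subunits of the NDC80 complex, the rod that couples kinetochores to microtubules, were split in the knockout. Ndc80 read 432 and 399 in control and 401 and 406 in knockout libraries, which overlapped (log2 difference -0.04 ± 0.058 SE, adjusted p = 0.547), and 415 and 416 in untreated against 698 and 642 in blocked libraries (log2 difference 0.69 ± 0.077 SE, adjusted p = 2.98e-07). A transcript of 2700099C18Rik matches Ndc80 at 95.05% identity over 303 bases. It read 218 to 241 in the first table, and 230 and 234 in untreated against 421 and 358 in blocked libraries. Reads shared between them could move the values of Ndc80. Nuf2, the partner of Ndc80, differed by 0.08 (adjusted p = 0.273) in the knockout and rose by 0.82 (adjusted p = 2.70e-09) under blockade. Spc24, on the inner side of the rod, read 264 and 253 in control and 417 and 389 in knockout libraries (log2 difference 0.64 ± 0.061 SE, adjusted p = 3.60e-04), and 461 and 432 in untreated against 834 and 865 in blocked libraries (log2 difference 0.93 ± 0.073 SE, adjusted p = 2.07e-09). Spc25, its dimer partner, read 227 and 219 in control and 269 and 257 in knockout libraries (log2 difference 0.24 ± 0.063 SE, adjusted p = 0.0193), and 323 and 313 in untreated against 626 and 589.8 in blocked libraries (log2 difference 0.93 ± 0.081 SE, adjusted p = 8.33e-09). Under blockade all 4 subunits rose, by 0.69 to 0.93. The knockout call for Spc25 was lost with upper-quartile rescaling (adjusted p = 0.0753), with DESeq2 (0.444) and on leaving out any 1 library (0.0625 to 0.102). Cenpf, a large outer kinetochore protein, differed by 0.08 (adjusted p = 0.3) in the knockout and rose by 0.60 (adjusted p = 4.00e-07) under blockade.

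The mitotic kinesins, motors that build and elongate the spindle, rose in 7 of 9 cases in the knockout and in 9 of 9 under blockade. Beside this, 32.9% and 31.4% of all genes tested were called higher. Kif22, which pushes chromosome arms away from the poles, read 338 and 359 in control and 556 and 546 in knockout libraries (log2 difference 0.66 ± 0.053 SE, adjusted p = 1.83e-04), and 449 and 476 in untreated against 908 and 869.8 in blocked libraries (log2 difference 0.94 ± 0.072 SE, adjusted p = 1.34e-09). Kif20a, needed for cytokinesis, read 453 and 468 in control and 698 and 702 in knockout libraries (log2 difference 0.60 ± 0.044 SE, adjusted p = 1.32e-04), and 453 and 426 in untreated against 807 and 851 in blocked libraries (log2 difference 0.91 ± 0.074 SE, adjusted p = 3.02e-09). Neither gene overlapped between groups. Of the Kif20a exon bases, 29.3% lie opposite exons of Cdc23, an anaphase-promoting complex gene that was also higher in both treated groups, and without strand their reads cannot be told apart. Kif2c, a microtubule depolymerase, and Kif18b, which limits astral microtubules, rose by 0.76 and 0.63 in the knockout and by 0.81 and 0.73 under blockade. Kif23, the centralspindlin motor, rose by 0.55 and 0.76. Kif11 separates the spindle poles and Kif4 is a chromosome-bound kinesin. They rose by 0.18 and 0.21 in the knockout and by 0.91 and 0.76 under blockade. Both knockout calls were lost with upper-quartile rescaling, with DESeq2, without the filter and without the mean-variance trend. Leaving out some single libraries also removed them. Kif15 and Kif20b, a spindle and a midbody kinesin, differed by 0.07 (adjusted p = 0.334) and 0.11 (adjusted p = 0.126) in the knockout and rose by 0.59 and 0.90 under blockade.

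The spindle assembly and midzone genes had medians of 0.21 in the knockout and 0.55 under blockade. Tpx2, which activates Aurora A on the spindle, read 1013 and 1008 in control and 1165 and 1174 in knockout libraries (log2 difference 0.21 ± 0.034 SE, adjusted p = 0.00288), and 1679 and 1636 in untreated against 2322 and 2550.0 in blocked libraries (log2 difference 0.55 ± 0.058 SE, adjusted p = 1.25e-07). Prc1, the crosslinker of antiparallel midzone microtubules, read 598 and 604 in control and 742 and 694 in knockout libraries (log2 difference 0.26 ± 0.049 SE, adjusted p = 0.00558), and 541 and 502 in untreated against 768 and 760.5 in blocked libraries (log2 difference 0.55 ± 0.073 SE, adjusted p = 2.30e-06). For both genes the treated libraries were above their references, although DESeq2 did not call the knockout rise of either (adjusted p = 0.108 and 0.13). Of the Prc1 exon bases, 11.1% lie opposite exons of Rccd1, which read 102 to 121 in control and 168 to 188 in knockout libraries. Nusap1, a microtubule-bundling protein, differed by 0.08 (adjusted p = 0.219) in the knockout and rose by 0.45 (adjusted p = 1.24e-06) under blockade.

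Condensin is the ring that compacts chromosomes, and 3 of its 5 subunits rose in the knockout and 5 of 5 under blockade. Of all genes tested, 32.9% and 31.4% were called higher. Ncaph, the kleisin subunit that closes the ring, read 696 and 733 in control and 1374 and 1373 in knockout libraries (log2 difference 0.94 ± 0.041 SE, adjusted p = 2.56e-05), and 1004 and 1005 in untreated against 1891 and 1866 in blocked libraries (log2 difference 0.90 ± 0.057 SE, adjusted p = 9.29e-11). Smc4, 1 of the 2 ATPase arms, read 3727 and 3989.9 in control and 4152 and 4092 in knockout libraries (log2 difference 0.10 ± 0.039 SE, adjusted p = 0.0754), and 4668 and 4721 in untreated against 9045 and 8313 in blocked libraries (log2 difference 0.89 ± 0.052 SE, adjusted p = 2.58e-11). Ncaph was well separated in both experiments. Smc4 passed in the knockout without control replicate 2 (adjusted p = 0.0364). Smc2, the other arm, differed by 0.04 (adjusted p = 0.435) in the knockout, and the HEAT-repeat subunits Ncapd2 and Ncapg rose by 0.38 (adjusted p = 2.67e-04) and 0.12 (adjusted p = 0.0445). Exons of Ncapg lie opposite those of Lcorl over 13.4% of their bases. The Ncapg call was lost with TMM rescaling (0.0663), upper-quartile rescaling (0.436), edgeR (0.125), DESeq2 (0.526) and the replicate number as a block (0.0733). It was also lost without the filter (0.0987), without the mean-variance trend (0.123) and in the fit of all 8 libraries (0.106). Leaving out any 1 library removed the call too, with differences of 0.08 to 0.15. Under blockade all 5 subunits rose by 0.82 to 0.90.

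The difference between the experiments was tested gene by gene as the knockout effect minus the blockade effect, in 1 limma fit of all 8 libraries that compares only differences formed within each table. Each manipulation was made in its own experiment, with Trim28fl/fl cells as reference in the first and wild-type cells in the second. A difference between the manipulations therefore cannot be told apart from a difference between the experiments. The effect was more positive in the knockout for 7 of the 48 genes and more positive under blockade for 28, where 24.7% and 17% of the 12428 genes tested were called in those directions, and 13 were not called. The median was -0.30 for the 48 genes and 0.05 for all genes. The 7 were Cdc25b with 1.98 ± 0.076 (SE, adjusted p = 1.14e-09), Cenpa with 0.88 ± 0.054 (SE, adjusted p = 7.07e-08), Ube2c with 0.56 ± 0.09 (SE, adjusted p = 3.33e-04), Plk1 with 0.47 ± 0.097 (SE, adjusted p = 0.00205), Aurka with 0.40 ± 0.099 (SE, adjusted p = 0.00571), Ccnb1 with 0.29 ± 0.093 (SE, adjusted p = 0.023) and Foxm1 with 0.24 ± 0.077 (SE, adjusted p = 0.0262). Of these, 5 are among the 9 mitotic entry genes. In the same role Cdk1, at -0.31 ± 0.063 (SE, adjusted p = 0.00172), and Plk4, at -0.29 ± 0.065 (SE, adjusted p = 0.00376), went the other way, and Ccnb2 and Cdc25c were not called. DESeq2 called 4 of the list as more positive in the knockout, and Aurka, Ccnb1 and Foxm1 were the genes it lost (adjusted p = 0.0678, 0.259 and 0.228). Ccnb1 was also lost on leaving out control replicate 1, either knockout library, either untreated library or blocked replicate B (0.0506 to 0.101), and Foxm1 on leaving out control replicate 2, either knockout library, untreated replicate 1 or blocked replicate A (0.0565 to 0.108).

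The largest shifts towards blockade were Cenpe at -0.999 ± 0.074 (SE, adjusted p = 3.83e-07) and Top2a at -0.99 ± 0.062 (SE, adjusted p = 7.73e-08). Smc2, Bub1, Kif20b and Smc4 followed at -0.80, -0.80, -0.79 and -0.79, and Mki67 stood at -0.75 ± 0.054 (SE, adjusted p = 2.87e-07). By role, the effect was more positive under blockade for 6 of 7 kinetochore genes, 6 of 9 kinesins, 4 of 5 condensin subunits, 4 of 7 checkpoint genes, 3 of 3 spindle assembly genes, 2 of 9 entry genes and both of Mki67 and Top2a. The same held for 1 of 6 passenger genes, Cdca2, and for 17% of the 12428 genes tested. Aurkb differed by -0.08 ± 0.073 (SE, adjusted p = 0.432), with a 95% interval from -0.24 to 0.08, and Ncaph by 0.04 ± 0.066 (SE, adjusted p = 0.655), with an interval from -0.10 to 0.18. The kinesin calls for Kif22 and Kif20a, the kinetochore call for Spc24, the checkpoint call for Ttk and the midzone call for Prc1 were lost with DESeq2 (adjusted p = 0.119, 0.0623, 0.148, 0.0781 and 0.065), and those for Kif22, Spc24 and Prc1 also on leaving out some single libraries (0.0573 to 0.111). Across the 48 genes the correlation of the 2 effects was weak, with Pearson's r = 0.106 and Spearman's rho = 0.205, and r = 0.223 without Cdc25b, a description across genes measured in the same 8 libraries.

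In all, 32 genes rose in both experiments. A further 10 rose under blockade without being called in the knockout, and Aurka rose in the knockout without being called under blockade. Cenpa and Ube2c rose in the knockout and fell under blockade, Mki67 and Cenpe fell in the knockout and rose under blockade, and Cdc25c was called in neither. The share of all genes in each of these joint classes was not computed, so how unusual the counts are cannot be judged from them. Taken singly, 32.9% of all genes were called higher in the knockout and 31.4% under blockade, and 28.2% and 28.9% lower.

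**Figure D3:**
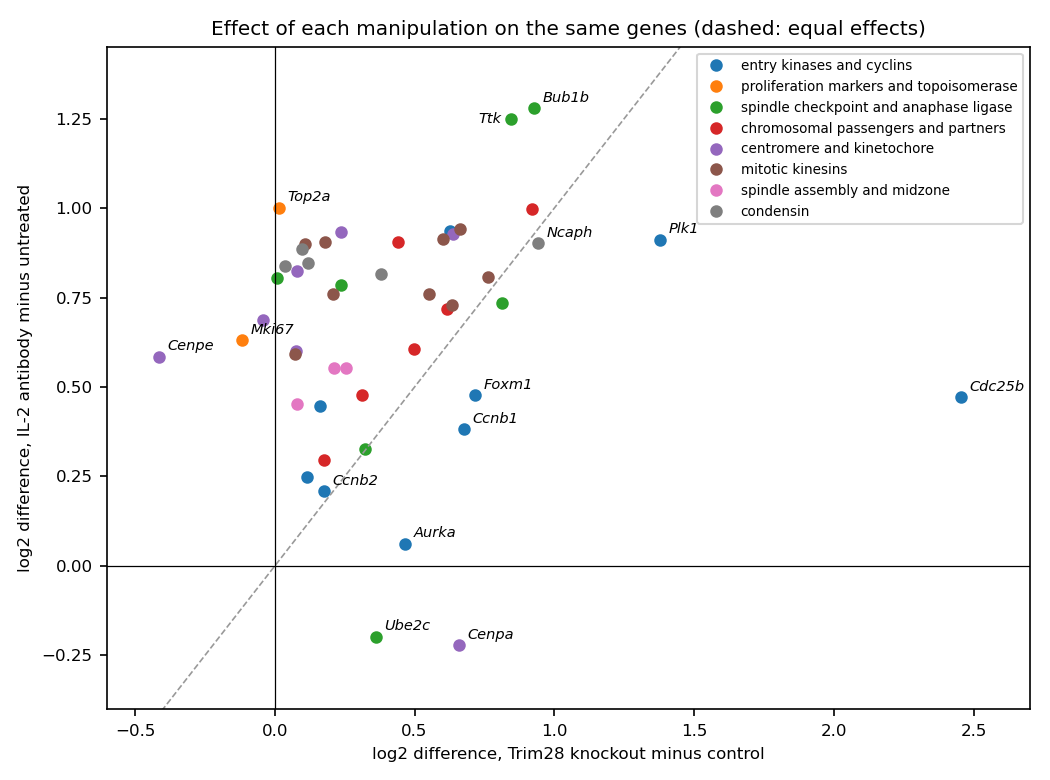
Log2 difference in the Trim28 knockout (horizontal) against that under IL-2 blockade (vertical) for the 48 genes, coloured by role, with equal effects on the dashed line. Cdc25b lies far to the right, most genes lie above the line, and Cenpa and Ube2c lie below 0 on the vertical axis while Cenpe and Mki67 lie left of 0 on the horizontal axis.

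Members with a GC-rich transcript had larger differences in the knockout. Across the 48 genes the log2 difference in the knockout and the GC content of the longest annotated coding transcript had Pearson's r = 0.593 and Spearman's rho = 0.665, and with log2 transcript length they were -0.338 and -0.446. Across all 11270 tested genes with a coding transcript the values for GC were 0.113 and 0.179. Under blockade the GC values were -0.144 and -0.066 for the 48 genes. These describe genes measured in the same libraries and carry no p-value.

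Split by GC into 3 sets of 16, the knockout call was higher for 6 genes of the lowest set (39.4% to 43.4% GC, median 0.09), 13 of the middle set (median 0.35) and 16 of the highest set (50.3% to 56.0% GC, median 0.65). Of all genes tested, 32.9% were called higher in the knockout, and the count of the lowest set was near that share. All tested genes in the same GC ranges had medians of -0.09, 0.02 and 0.12, a smaller shift in the same direction. In the lowest set Ttk rose by 0.85 and Bub3, Mad2l1, Kif11, Plk4 and Ncapg by 0.12 to 0.32, Cenpe fell, and Top2a, Smc2, Smc4, Bub1, Cenpf, Nuf2, Kif15, Kif20b and Nusap1 were not called. The highest set included Plk1, Cdc25b, Foxm1, Cdc20, Aurkb, Incenp, Spc24, Kif2c and Kif22. Under blockade 16, 14 and 14 of the 16 genes in each set rose, beside 31.4% of all genes tested. The part of GC content in the knockout differences was not tested.

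**Figure D4:**
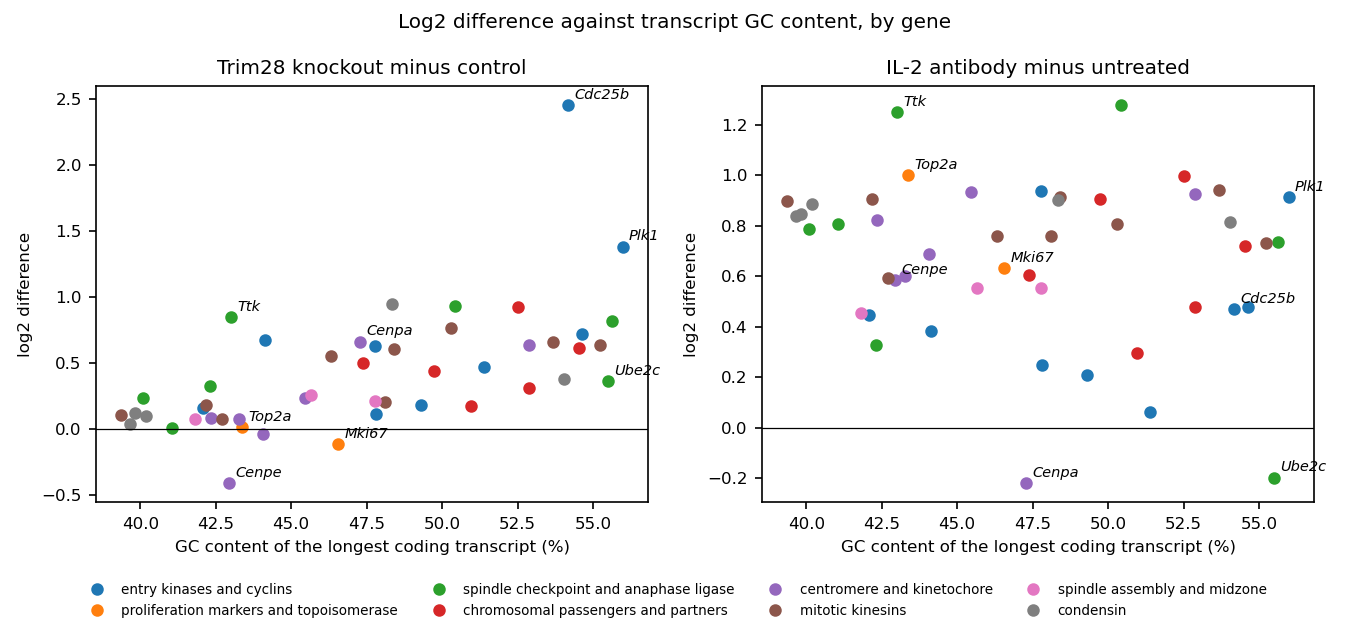
Log2 difference (vertical, own scale in each panel) of the 48 genes against the GC content of the longest coding transcript (horizontal), for the Trim28 knockout (left) and IL-2 blockade (right), coloured by role. In the knockout the points climb from left to right, from a median of 0.09 in the lowest 16 to 0.65 in the highest, and under blockade they do not.

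The genes around the mitotic machinery were described from 8 lists by counts and medians, to be read beside the 32.9% of all genes called higher and 28.2% called lower in the knockout, and 31.4% and 28.9% under blockade. These lists too were chosen with earlier results of these data known. Of 32 genes of G1/S and DNA replication, 30 rose in the knockout and 32 under blockade, with medians of 0.60 and 1.01. Mcm2, a subunit of the replicative helicase, rose by 1.14 and 1.32, Rrm2, a subunit of ribonucleotide reductase, rose by 1.05 in the knockout, and its partner Rrm1 by 1.24 under blockade. Of 13 tested cyclin-dependent kinase inhibitors and quiescence genes, 11 fell and 1 rose in the knockout, and 8 fell and 2 rose under blockade, with medians of -0.69 and -0.56. Cdkn2c, the p18 inhibitor, was the 1 that rose in the knockout (0.53, adjusted p = 0.0101), and it rose under blockade (from 44.7 and 57.7 to 127 and 110.3, adjusted p = 8.18e-06) with Ccng1, cyclin G1 (0.33). Cdkn1a, the p21 inhibitor, read 4164 and 4106 in control and 1247 and 1245 in knockout libraries (-1.73, adjusted p = 2.46e-06). It read 4606 and 4694 in untreated and 1269.6 and 1482 in blocked libraries (-1.76, adjusted p = 1.89e-14). Btg1, an antiproliferative factor, differed by -0.76 and -1.42.

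Among 19 DREAM, MuvB, MYB and E2F regulators, 12 rose and 2 fell in the knockout (median 0.37), and 13 rose and 1 fell under blockade (median 0.47). Mybl2, B-MYB, the activator that joins MuvB at CHR promoters, read 382 and 371 in control and 829 and 833 in knockout libraries (1.14, adjusted p = 1.88e-05) and 466 and 516 in untreated against 1086 and 1248 in blocked libraries (1.25, adjusted p = 7.38e-11). Of 13 further entry regulators 9 rose and 1 fell in the knockout (median 0.46), and 12 rose and 1 fell under blockade (median 0.69). Ccna2, cyclin A2, rose by 0.76 and 1.14, and Ccnf, cyclin F, by 1.66 and 1.14. Of 19 genes of the anaphase-promoting complex and its inhibitors, 12 rose and 3 fell in the knockout (median 0.25), and 11 rose and 2 fell under blockade (median 0.22). Fbxo5, the EMI1 inhibitor of the complex, rose by 1.02 and 1.23, while Pttg1, securin, fell in both experiments, at -0.99 (adjusted p = 5.53e-05) and -0.51 (adjusted p = 3.56e-05). Espl1, separase, which securin restrains, rose by 1.14 under blockade.

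Of 35 other kinetochore and checkpoint genes tested in each table, 21 rose and 6 fell in the knockout (median 0.28), and 31 rose and 1 fell under blockade (median 0.60). The 1 that fell under blockade was Mis18a, a loading factor for the CENP-A histone, which read 1633 and 1701 in untreated and 924 and 894 in blocked libraries (-0.87, adjusted p = 2.81e-10). Hjurp, the CENP-A chaperone, read 2325 and 2368 in control and 3075 and 3096 in knockout libraries (0.40, adjusted p = 1.26e-04). Cenpb, which binds centromeric repeats, rose by 1.64 in the knockout, and Knl1, the kinetochore scaffold of the checkpoint, by 1.33 under blockade. The 33 spindle, centrosome and cytokinesis genes had 18 higher and 5 lower in the knockout (median 0.23) and 29 higher and 1 lower under blockade (median 0.57). Aspm, a spindle pole protein, fell in the knockout (-0.49, adjusted p = 3.03e-04), as Cenpe did. The 14 condensin II and cohesin genes had 7 higher and 3 lower in the knockout (50% and 21.4%, beside 32.9% and 28.2% of all genes, median 0.12) and 11 higher and 1 lower under blockade (median 0.54). Cdca5, sororin, which protects sister cohesion, rose by 0.64 and 1.01, and Nipbl, the cohesin loader, fell in both, at -0.56 (adjusted p = 1.01e-04) and -0.24 (adjusted p = 6.90e-04).

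**Figure D5:**
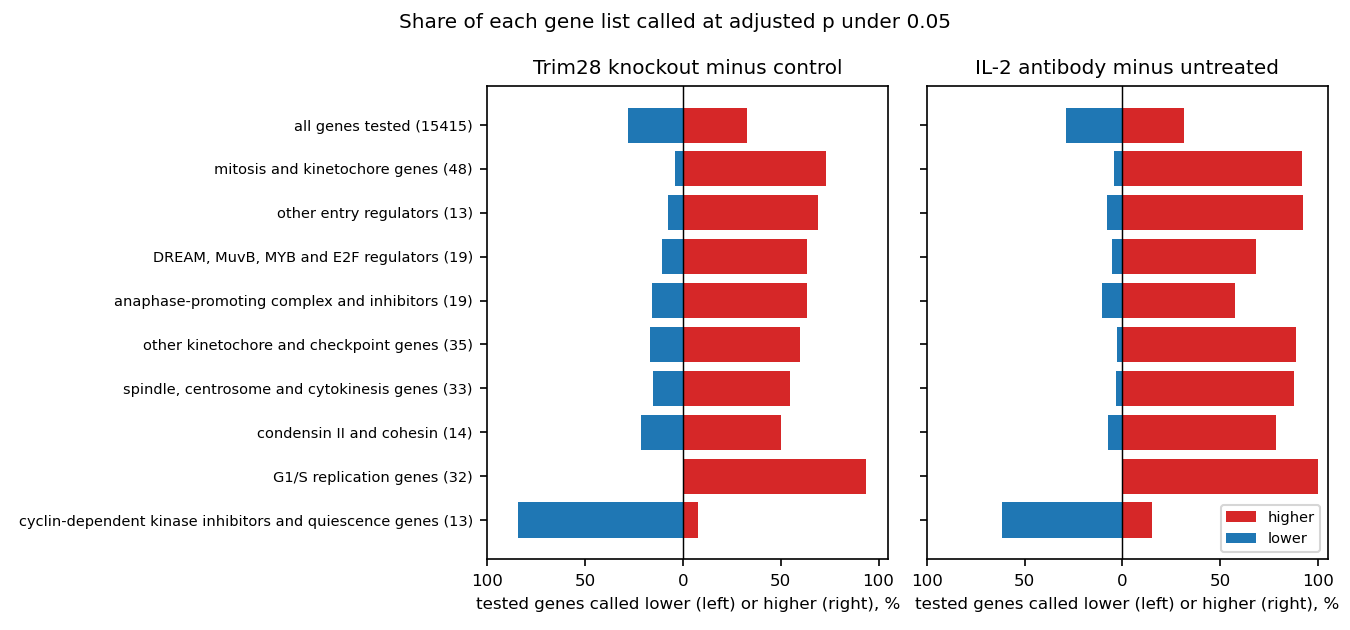
Share of tested genes called higher (right, red) or lower (left, blue) at an adjusted p under 0.05, in percent, for all genes, the 48 mitotic genes and 8 surrounding lists, with the number tested in the knockout table in brackets. Replication genes reach 93.8% higher in the knockout and 100% under blockade, while kinase inhibitors and quiescence genes are mostly on the lower side, with 84.6% and 61.5%.

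As reads per kilobase of transcript and per total reads (RPKM), Cenpa was the most abundant member in the control libraries, at 102, followed by Top2a at 73.4 and Smc4 at 66.6. The least abundant were Cenpf at 2.93, Cdc25c at 3.75 and Ttk at 5.12. In the knockout Cenpa reached 164 and Top2a stood at 75.4. In the blocked libraries Top2a, at 152, and Smc4, at 123, stood above Cenpa, at 116, whereas in the untreated libraries Cenpa led with 128 and Top2a had 71.9. Cdc25b stood at 7.98 in control and 44.6 in knockout libraries, on this scale. These levels use the longest coding transcript of each gene and are means of 2 libraries.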

How the data were processed

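Polyadenylated RNA of 8 libraries of CD8+ T cells was sequenced, 2 per group. The submitters' processing notes name Trim Galore 0.4.4, HISAT2 2.2.1, StringTie 2.1.4, DESeq2 and the build mm10. What counted the reads, and whether strand was used, is not given in the sources used here. The values the authors deposited are a signal: whole read counts divided by a size factor per library, with each table scaled on its own, as every value in the deposited tables is a whole multiple of 1 read within 0.001. The log2 fold changes, test statistics (a score) and p-values that the authors deposited in each table stand under DESeq2's usual column names, per the file headers, and were not used.

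Values were fitted as log2(value + 1) with limma 3.58.1 (R 4.3.3) and a mean-variance trend, keeping genes whose value reached 10 in 2 or more libraries. P-values were Benjamini-Hochberg adjusted over all genes tested and called at under 0.05. Adjusted p in the report comes from this limma fit unless edgeR 4.0.16 or DESeq2 1.42.0, run on the recovered reads, is named. Fold differences are on the log2(value + 1) scale, which understates changes of low genes. Effects of the 2 experiments were compared in 1 fit of all 8 libraries. On simulated counts the knockout design recovered 99% of genes changed by 1 log2 unit and 74% of those changed by 0.5, over 15415 genes, and the blockade design 97% and 89%, over 13978 genes. The simulation changed 100 genes of each size and used TMM rescaling, so it does not give the recovery in the real data, where far more genes were called.

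Every member may be named. Library values and full statistics were given for the 2 most changed called members of each role, members called in opposite directions, and Mki67, Top2a, Cdk1, Ccnb1, Plk1, Aurkb, Bub1b, Cenpa, Ndc80 and Foxm1; surrounding lists name up to 3 genes with the smallest adjusted p per comparison, or the value of such a gene in the other comparison. The members and lists were chosen with earlier results of these data known. GC content, length and exon overlap used GENCODE M21 (GRCm38), and near-identical transcripts were found with BLAST+ 2.17.0 at 95% identity over 200 bases or more.

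Whether same-numbered control and knockout libraries are pairs was checked by correlating replicate 1 minus replicate 2 between the groups across genes, which gave 0.013. The columns of the blocked libraries, antiil2 and antiil2r, carry no number, and they are called A and B here. What the added r stands for is not given, and both were taken as replicates of the blocked group. Alternatives were other pseudocounts, filters, scalings, tools, the replicate block and leaving out each library.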

Additional observations from a re-analysis of the deposited data

How the results depend on the processing

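In the knockout, the members called lower numbered 1 in place of 2 without the filter on low values, without the mean-variance trend and with the replicate number as a block, and 1 whichever library was left out; the gene lost was Mki67. Their median log2 difference was 0.24 with upper-quartile rescaling, 0.28 with edgeR and 0.28 with DESeq2, and 0.27 to 0.37 with 1 library left out. The knockout members called higher numbered 24 to 31 with 1 library left out. Over all genes, DESeq2 called 2846 higher and 2660 lower in the knockout where limma called 5065 and 4344, and without knockout replicate 1 or 2 limma called 3212 and 3234 higher. Under blockade, the members called lower numbered 1 without the filter, 0 without the mean-variance trend, and 0 to 2 with 1 library left out. Their median was 0.69 with upper-quartile rescaling and 0.73 to 0.80 with 1 library left out. Of the difference between the experiments, DESeq2 called 4 members larger in the knockout, with a median of -0.35, and the median was -0.35 to -0.28 with 1 library left out. The cause of these shifts was not tested, except that fewer libraries were fitted on leaving 1 out.

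The replicate block left 34 knockout members called higher and 1 lower. Differences between replicates 1 and 2 of the control and knockout groups had a correlation of -0.247 across the 10335 genes with a mean of at least 100, and the crossed pairing, chosen after seeing the data, gave 36 and 2. No paired analysis was possible for the blockade or for the difference between the experiments because the blocked columns carry no replicate number. With 2 libraries per group, members with small differences cannot be called unchanged. The self-test recovered 74% of changes of 0.5 on the log2 scale in the knockout, but it changed only 100 genes of each size. In the data 61% of all genes were called, so that share is not the recovery of the real fit.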

Other observations

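Of 3 genes that help place CENP-A at centromeres, 2 rose and 1 fell in both experiments. HJURP is the chaperone that carries CENP-A, and Mis18a and Oip5 (MIS18 beta) belong to the complex that marks where it is loaded. These 3 genes were chosen after their values were seen. Mis18a read 1505 and 1392 in control and 1131 and 1099 in knockout libraries (log2 difference -0.38 ± 0.048 SE, adjusted p = 0.0011), and 1633 and 1701 in untreated against 924 and 894 in blocked libraries (log2 difference -0.87 ± 0.060 SE, adjusted p = 2.81e-10). Oip5 read 99.4 and 97.3 in control and 184 and 169.6 in knockout libraries, and 124 and 133 in untreated against 313 and 299 in blocked libraries. Hjurp read 2325 and 2368 in control and 3075 and 3096 in knockout libraries, and 2890.2 and 2954 in untreated against 4211 and 4270.5 in blocked libraries. Mis18a was called lower in both experiments by limma, and Oip5 and Hjurp were called higher in both. The log2 differences of Oip5 and Hjurp were 0.84 and 0.40 in the knockout (adjusted p = 3.98e-04 and 1.26e-04) and 1.25 and 0.54 under blockade (adjusted p = 1.02e-08 and 2.30e-08). Oip5 exons lie opposite 4.24% of the exon bases of Nusap1.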
